A study of Homo sapiens with 4 samples.

Results

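The epithelial and mesenchymal state of HCT116 cells, an established human colon cancer line, was described with 10 genes taken by symbol from the 19970 genes of the expression tables. The 4 epithelial genes were CDH1, EPCAM, ESRP1 and GRHL2, and the 6 mesenchymal genes were CDH2, VIM, ZEB1, SNAI1, SNAI2 and TWIST1. All 10 were listed in each of the 4 libraries. The study sequenced total RNA of HCT116 cells to compare silencing of LINC00152, a long non-coding RNA, with a control. The si-NC group received a scrambled control siRNA and the si-152 group an siRNA against LINC00152, each at 100 nM for 36 h, with 2 biological replicates per group. Both groups came from 1 cell line and 1 time point. The level of LINC00152 itself was not analysed here, so its silencing in these libraries was not checked.

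Epithelial cells hold together through E-cadherin junctions, and they can lose these contacts and gain mesenchymal, motile features in a process called the epithelial-mesenchymal transition. Transcription factors of the SNAIL, ZEB and TWIST families bind E-box sequences in promoters such as that of CDH1 and repress epithelial genes, whereas GRHL2 and ESRP1 maintain epithelial transcription and splicing. The miR-200 family represses ZEB1 and ZEB1 represses the miR-200 genes in turn, and many colon cancer lines lie on the epithelial side of this switch.

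Because this loop links ZEB1 to short target sequences, the miR-200 family is shown with the matches in ZEB1. The mature sequences are from RefSeq, and capitals mark the seed, bases 2 to 8. miR-200a-3p and miR-141-3p share one seed, and miR-200b-3p, miR-200c-3p and miR-429 share the other.
miR-200a-3p: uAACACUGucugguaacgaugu
miR-141-3p: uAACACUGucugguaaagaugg
miR-200b-3p: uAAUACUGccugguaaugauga
miR-200c-3p: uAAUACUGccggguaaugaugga
miR-429: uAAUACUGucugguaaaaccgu

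The longest annotated ZEB1 3′ UTR is 2549 bases long and lies in exon 9 of 9 on the plus strand of chromosome 10 (GENCODE annotation of GRCh38). On the transcript strand it held CAGTATT, the complement of the second seed, 6 times, and CAGTGTT, that of the first, 3 times. Of 18085 genes with a 3′ UTR, 16.2% held CAGTATT and 18.5% held CAGTGTT at least once. At least 6 CAGTATT matches were found in 3 genes (0.02%) and at least 3 CAGTGTT matches in 190 genes (1.05%), where the median 3′ UTR was 1102 bases long. The ZEB1 windows below are written on the plus strand, with the match in capitals.
chr10:31527618-31527643: attgttttatcttatCAGTATTatca
chr10:31528492-31528517: ctgatttttacctatCAGTATTattt
chr10:31529213-31529238: tcttttcatcattatCAGTATTttct
chr10:31528782-31528807: tgagatttgatttaaCAGTGTTatgt

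Among the other 9 genes, CAGTATT occurred once in ESRP1 and once in SNAI2, and CAGTGTT once in ESRP1 and once in GRHL2. The seed of miR-185-3p is shown because the study examined this miRNA. Its complement CAGCCCC occurred in 2 places in the SNAI1 3′ UTR, once in GRHL2 and in none of the other 8. Of all genes with a 3′ UTR, 19.6% held it. The study also examined miR-632, which was absent from the miRNA set used here and so was not searched.
miR-185-3p: aGGGGCUGgcuuuccucugguc

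SNAIL and ZEB proteins bind the E-box CACCTG, and both strands were searched. Promoters, from 250 bases before to 50 after the start, were taken from a RefSeq (GRCh38.p14) set, in which 20.6% of 35116 held the word. The set had entries for VIM, ZEB1 and CDH2 only, so CDH1 and the other members were not searched. The word was in 2 of the 7 ZEB1 promoters and in none of those of VIM and CDH2. One of these windows is shown with the E-box in capitals, which begins 57 bases before the transcript start of its own promoter entry, not the start of the gene as annotated by GENCODE.
chr10:31318348-31318377: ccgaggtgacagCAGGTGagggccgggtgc

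These matches are words in the reference, not measured sites, and miRNA levels were not analysed here.

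The tables held values taken from their form to be FPKM, fragments scaled to transcript length and to library size, and levels are compared between genes on that reading, with 14589 to 14686 genes above 0 per library. FPKM summed to 424754 to 534311 per library and depth is unknown, because whole reads could not be recovered. Exact zeros occurred for abundant genes: 6 genes were listed at 0 in some library and at 10 FPKM or more in another. HNRNPC, a nuclear RNA-binding protein, had 288.7 and 318.5 FPKM in si-152 and the value 0 in each control library, so a 0 is read here only as listed at 0. Of the colon epithelial markers KRT8, KRT18 and KRT19, keratins of simple epithelia, all lay between 566.9 and 1378 FPKM, and the intestinal factor CDX2 between 8.29 and 10.4, whereas VIL1, CDH17, CDX1 and LGR5 were below 1 in every library. Fibroblast markers were below 1 FPKM in every library for 8 of 9 genes, the other being COL1A1 at 7.02 to 7.98, and leukocyte and endothelial markers for 7 of 8, the other being CD68 at 2.73 to 3.47.

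Among the 10 genes, the epithelial ones EPCAM, ESRP1 and CDH1 had the highest levels in HCT116, and all 6 mesenchymal genes were below these. In order of the mean FPKM over the 4 libraries, EPCAM (221.2) was followed by ESRP1 (67.2), CDH1 (23.2), VIM (8.81), SNAI1 (5.97), GRHL2 (3.59), TWIST1 (1.85), ZEB1 (1.17), SNAI2 (0.436) and CDH2 (0.0150). GRHL2 ranked below VIM and SNAI1. In every library each gene was above the next one in this order except TWIST1 and ZEB1, which were in that order in 3 of 4 libraries. Across libraries the ranges of TWIST1 and ZEB1 overlapped, as did those of ZEB1 and SNAI2.

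**Figure D1:**
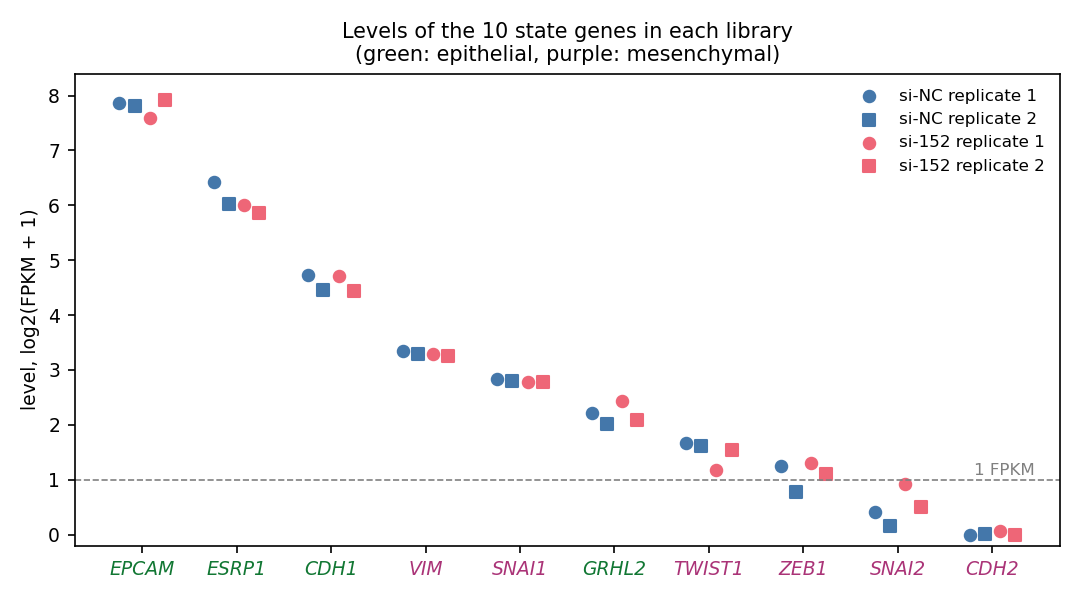
Level of each of the 10 genes as log2(FPKM + 1) in the 4 libraries, coloured by group (blue si-NC, red si-152) with circles for replicate 1 and squares for replicate 2, and a dashed line at 1 FPKM. EPCAM, ESRP1 and CDH1 stand above all 6 mesenchymal genes in every library, and CDH2 lies at the bottom of the scale.

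The 4 epithelial genes summed to 346.4 and 310.8 FPKM in si-NC and to 283.2 and 320.2 in si-152. The 6 mesenchymal genes summed to 19.2 and 17.7 in si-NC and to 18.3 and 17.9 in si-152. The epithelial sum was therefore 18.1 and 17.6 times the mesenchymal sum in si-NC, and 15.5 and 17.9 times in si-152, and the groups overlapped. EPCAM holds most of the epithelial sum, so the ratio follows that gene and the choice of genes. Over wider lists, described further on, 23 epithelial surface genes summed to 1635 and 1805 FPKM in si-NC and to 1360 and 1691 in si-152. The 25 mesenchymal markers summed to 1394 and 1738 in si-NC and to 1245 and 1357 in si-152, close to the epithelial surface sums. S100A4 alone gave 732.1 and 1120 FPKM of the mesenchymal sum in si-NC and 617.3 and 718.2 in si-152. The highest epithelial surface gene, SPINT2, gave 413.7 and 480.5 in si-NC and 361.7 and 485.7 in si-152. The closeness of the wider sums thus also follows single genes.

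**Figure D2:**
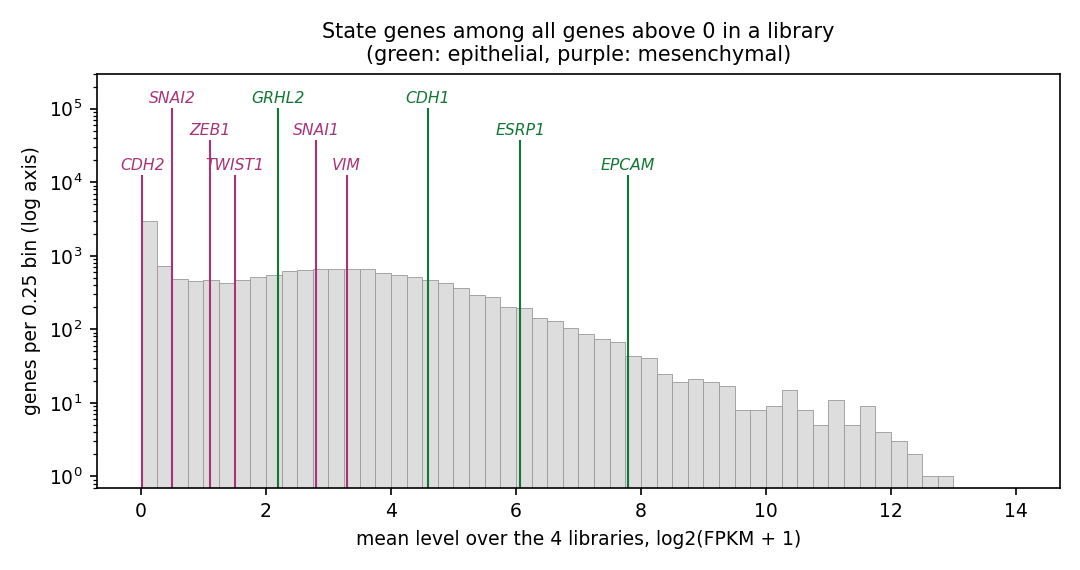
Histogram of the mean log2(FPKM + 1) over the 4 libraries for all genes above 0 in some library (log count axis), with vertical lines at the 10 genes, green for epithelial and purple for mesenchymal. GRHL2 lies to the left of SNAI1 and VIM, and EPCAM lies in the sparse right part of the distribution.

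CDH1 (chr16:68737225-68835548, GRCh38) encodes E-cadherin, the adhesion molecule of epithelial junctions. Its FPKM was 25.7 and 21.1 in si-NC and 25.3 and 20.7 in si-152, or 23.4 ± 3.25 and 23.0 ± 3.29 (SD, n = 2). Both groups covered nearly the same range, and the replicates differed more than the groups did. CDH1 lay between the 77.4 and 82.1 percentiles of the genes above 0 in a library. The difference of si-152 from si-NC was -0.02 on the log2(FPKM + 1) scale (SE 0.18, 95% interval -0.43 to 0.39, limma, adjusted p = 0.9996). The same-numbered replicates differed by -0.02 in both pairs. The interval, which is not adjusted for the number of genes tested, runs from 0.74 to 1.31 fold, so changes within that range remain possible.

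EPCAM (chr2:47345158-47387601) encodes a surface glycoprotein of epithelial cells. Its FPKM was 231.9 and 222.9 in si-NC and 190.5 and 239.5 in si-152, and the highest and the lowest library were both in si-152. It lay at or above the 98.0 percentile of the genes above 0 in every library. The difference was -0.09 (SE 0.20, interval -0.55 to 0.37, limma, adjusted p = 0.9996), with the pairs at -0.28 and 0.10, which are opposite in sign.

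ESRP1 (chr8:94641074-94707466) encodes an RNA-binding protein that promotes epithelial splice forms. Its FPKM was 85.2 and 63.8 in si-NC and 63.0 and 56.7 in si-152. The groups did not overlap, but the lower si-NC library stood next to the higher si-152 library. The difference was -0.30 (SE 0.19, interval -0.73 to 0.13, limma, adjusted p = 0.9996), with the pairs at -0.43 and -0.17. Of all tested genes, 85.0% had a smaller absolute difference. Leaving out single libraries moved it from -0.50 (without si-NC replicate 2) to -0.09 (without si-NC replicate 1). ESRP1 was 15.3 and 12.8 times its paralog ESRP2 in si-NC and 9.83 and 10.9 times in si-152. Gene totals do not show splice forms, so the targets of ESRP1 were not analysed here.

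GRHL2 (chr8:101492432-101669726) encodes a grainyhead transcription factor that maintains epithelial genes such as CDH1. Its FPKM was 3.63 and 3.04 in si-NC and 4.41 and 3.28 in si-152. The groups overlapped, and within each group replicate 1 was the higher. The difference was 0.15 (SE 0.21, interval -0.32 to 0.63, limma, adjusted p = 0.9996), with the pairs at 0.22 and 0.08. GRHL2 and its paralog GRHL1 were close in level, with a ratio of 0.856 to 1.42.

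VIM (chr10:17228259-17237593) encodes vimentin, the intermediate filament of mesenchymal cells. Its FPKM was 9.15 and 8.78 in si-NC and 8.75 and 8.54 in si-152. The groups did not overlap, but all 4 values were close. The difference was -0.05 (SE 0.18, interval -0.44 to 0.35, limma, adjusted p = 0.9996), with the pairs at -0.06 and -0.04. VIM lay between the 58.1 and 61.0 percentiles of the genes above 0. VIM-AS1 overlaps VIM on the opposite strand, and whether the authors counted by strand is not given in the sources used here, so reads of the pair cannot be told apart.

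CDH2 (chr18:27950966-28177446) encodes N-cadherin, the cadherin of neural and mesenchymal cells. It was listed at 0 and 0.0119 FPKM in si-NC and at 0.0483 and 0 in si-152. These values lay at or below the 5.6 percentile of genes above 0, and CDH2 was below the minimum of 1 FPKM and not tested with the others. With no filter on low values its difference was 0.03 (SE 0.04, limma, adjusted p = 0.9804). A cadherin switch could be read here only as levels: CDH1 was at 20.7 to 25.7 FPKM and P-cadherin, CDH3, at 28.04 to 37.1, with CDH3 1.33 to 1.62 times CDH1 in every library. CDH3 was named after its values were seen.

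ZEB1 (chr10:31318495-31529814) encodes a zinc finger repressor of epithelial genes. Its FPKM was 1.37 and 0.705 in si-NC and 1.47 and 1.15 in si-152. The si-NC libraries spanned the lower of the si-152 libraries, and replicate 2 of si-NC was the lowest. The difference was 0.20 (SE 0.23, interval -0.32 to 0.71, limma, adjusted p = 0.9996), with the pairs at 0.06 and 0.33. Its relative ZEB2 was at or below 0.00566 FPKM in every library. ZEB1-AS1 overlaps ZEB1 on the opposite strand.

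SNAI1 (chr20:49982999-49988886) encodes SNAIL, a zinc finger repressor of CDH1. Its FPKM was 6.15 and 5.99 in si-NC and 5.84 and 5.90 in si-152. All 4 libraries were close, and the groups did not overlap. The difference was -0.04 (SE 0.18, interval -0.45 to 0.37, limma, adjusted p = 0.9996), with the pairs at -0.06 and -0.02. SNAI1 was the most abundant of the 4 repressors, between the 48.3 and 52.6 percentiles of genes above 0. The pseudogene SNAI1P1 resembles it, and how reads were shared between them is not known here.

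SNAI2 (chr8:48917604-48921740) encodes SLUG, a close relative of SNAIL. Its FPKM was 0.325 and 0.114 in si-NC and 0.885 and 0.422 in si-152. Both si-152 libraries were above both si-NC libraries, with pair differences of 0.51 and 0.35 on the log2(FPKM + 1) scale. All values were below 1 FPKM, so SNAI2 was not tested with the others. With no filter on low values its difference was 0.43 (SE 0.17, limma, adjusted p = 0.9804). The +1 understates differences at such low levels, where the mean FPKM was 0.220 in si-NC and 0.653 in si-152.

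TWIST1 (chr7:19020991-19117672) encodes a basic helix-loop-helix factor of the mesenchyme. Its FPKM was 2.17 and 2.08 in si-NC and 1.27 and 1.90 in si-152. The groups did not overlap, but the si-152 replicates lay farther apart than the higher of them lay from si-NC. The difference was -0.29 (SE 0.21, interval -0.76 to 0.19, limma, adjusted p = 0.9996), with the pairs at -0.48 and -0.09. Leaving out single libraries moved it from -0.46 (without si-152 replicate 2) to -0.11 (without si-152 replicate 1).

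**Figure D3:**
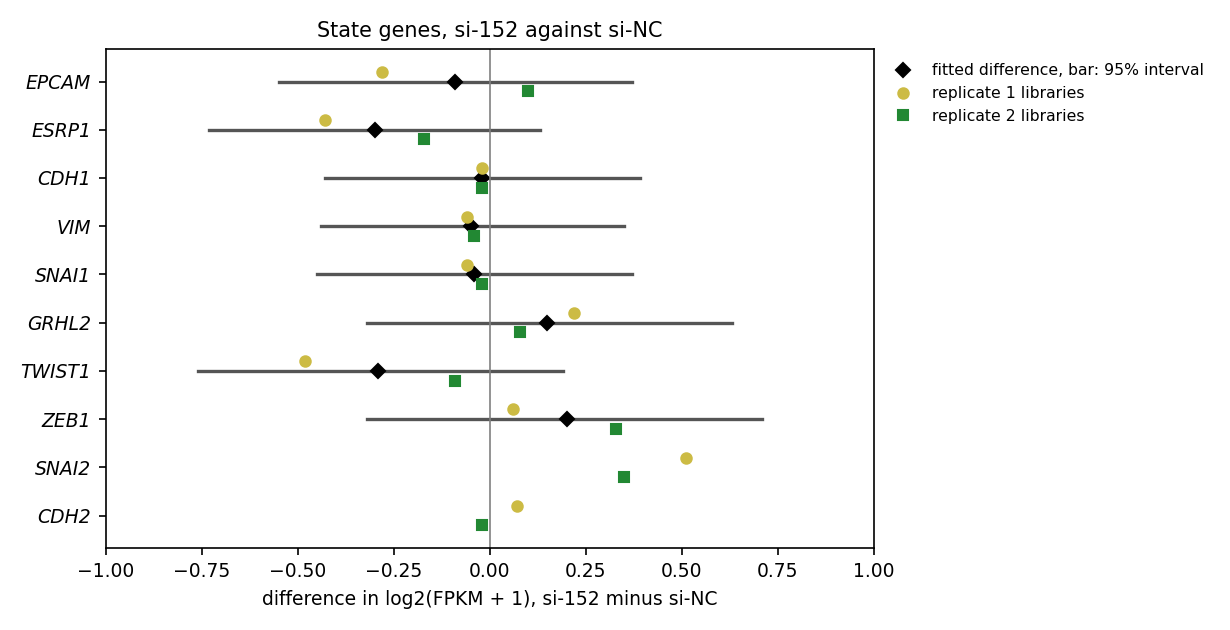
Difference of si-152 from si-NC on the log2(FPKM + 1) scale for the 10 genes, with the 95% limma interval for the 8 tested genes and the differences of replicate pairs 1 and 2 as separate symbols. Each interval crosses 0, and the pairs lie on both sides of 0 only for EPCAM and CDH2.

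Of the 10 genes, 8 passed the filter of at least 1 FPKM in at least 2 libraries. By limma with Benjamini-Hochberg adjustment over 11219 genes, 0 of these 8 were called, where 0.0178% of all tested genes, 2 genes, were. The pair called was HNRNPC and PSMC4, a proteasome subunit, with 0.562 and 1.33 FPKM in si-152 against 8.69 and 19.1 in the controls. The call of HNRNPC rests on its control values listed at 0, described above, so it may not be a change in level. At unadjusted p under 0.05 the count was again 0 of 8, against 4.39% of all tested genes. The groups did not overlap for ESRP1, VIM, SNAI1 and TWIST1, 4 of 8, each lower in si-152, against 13.9% of all tested genes lower and 30.4% in either direction. This count rests on the 8 that passed the filter, and SNAI2, outside it, was higher in si-152 without overlap. With quantile normalization only VIM and TWIST1 of these did not overlap. In bulk RNA, fewer cells of a state and less RNA per cell cannot be told apart.

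The ratio of CDH1 to VIM, a common index of the state, was 2.80 and 2.40 in si-NC and 2.89 and 2.42 in si-152. Replicate 1 was the higher in both groups, and the group means differed by 0.03 on the log2 scale (exact two-sided permutation test over libraries, p = 0.6667). With 2 against 2 libraries the smallest p this test can give is 0.3333.

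Other genes of the pathway were taken from 7 lists holding 112 genes: epithelial regulators, epithelial surface genes, catenins and junction genes, mesenchymal regulators, mesenchymal markers, splicing regulators and partners of the SNAIL and ZEB factors. Of these, 87 were tested, and 0 passed the adjusted threshold of limma. At unadjusted p under 0.05, 4 were higher and 5 were lower in si-152, 10.3% of the 87, beside 4.39% of all tested genes. The lists were chosen with results of these data known, so these counts are a description. Signs were mixed, with 46 positive and 41 negative log2 differences and a median of 0.00, where all tested genes had a median of 0.02.

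Epithelial regulators gave 4 positive and 6 negative differences among the 10 tested of 13, with a median of -0.04. KLF4, a factor of differentiated epithelium, had 38.0 and 29.8 FPKM in si-NC, against 22.8 and 24.0 in si-152. Both si-152 libraries were below both controls, with a difference of -0.51 (SE 0.18, limma, adjusted p = 0.9996). ELF3, an epithelial ETS factor, was at 60.8 and 53.9 in si-NC and 43.5 and 45.8 in si-152, and KLF5 at 21.7 and 21.6 in si-NC and 22.5 and 19.5 in si-152.

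Epithelial surface genes gave 7 positive and 12 negative differences among the 19 tested of 23, with a median of -0.11. MPZL2, an adhesion protein of epithelia, had 4.89 and 3.998 FPKM in si-NC, against 2.41 and 2.54 in si-152. That difference was -0.64 (SE 0.20, limma, adjusted p = 0.8416), without overlap between the groups. S100A14, a calcium-binding protein of epithelial cells, was at 318.7 and 370.3 in si-NC and 176.2 and 282.1 in si-152, a difference of -0.62 (SE 0.26, limma, adjusted p = 0.9996). SPINT2, a protease inhibitor, and MAL2, a protein of apical transport, were the others of the highest in the list, with differences of -0.09 and -0.32.

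Catenins and junction genes gave 9 positive and 3 negative differences among the 12 tested of 13, with a median of 0.03. CTNNB1, which encodes β-catenin, had 68.7 and 65.3 FPKM in si-NC, against 79.4 and 72.3 in si-152, without overlap. Its difference was 0.17 (SE 0.17, limma, adjusted p = 0.9996). CTNNA1 differed by 0.01 and JUP by 0.06. None of these had an unadjusted p under 0.05.

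Of the 12 mesenchymal regulators, 4 were listed at 0 in every library, 7 were below 1 FPKM in every library and 5 were tested. TCF3, whose E47 product represses CDH1, had 24.2 and 22.3 FPKM in si-NC, against 38.6 and 36.9 in si-152. Both si-152 libraries were above both controls, with a difference of 0.68 (SE 0.16, interval 0.31 to 1.04, limma, adjusted p = 0.5941). HMGA2, a chromatin protein that acts upstream of SNAI1, was at 70.9 and 58.0 in si-NC and 45.2 and 41.9 in si-152, a difference of -0.55 (SE 0.18, limma, adjusted p = 0.8777). TCF3 and HMGA2 thus stood apart between the groups in opposite directions, and FOXC1 differed by 0.07.

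Of the 25 mesenchymal markers, 3 were listed at 0 in every library and 9 were below 1 FPKM in every library, while 11 were above 10 FPKM in every library. The 15 tested gave 8 positive and 7 negative differences, with a median of 0.05. ACTA2, smooth muscle actin, had 2.82 and 2.53 FPKM in si-NC, against 4.76 and 5.29 in si-152. Its groups did not overlap, with a difference of 0.71 (SE 0.19, limma, adjusted p = 0.7604), and its coding sequence is close to that of other actins, so its reads are uncertain. NT5E, the surface nucleotidase CD73, was at 50.8 and 42.5 in si-NC and 62.4 and 59.9 in si-152, a difference of 0.39 (SE 0.17, limma, adjusted p = 0.9996). S100A4, a motility protein, was the highest, at 732.1 and 1120 in si-NC and 617.3 and 718.2 in si-152, and PLAU and EMP3 differed by -0.13 and -0.18.

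All 8 splicing regulators were tested, 4 with a positive and 4 with a negative difference. RBM24 had 2.00 and 1.35 FPKM in si-NC, against 0.669 and 1.03 in si-152, a difference of -0.53 (SE 0.22, limma, adjusted p = 0.9996). The groups did not overlap for RBM24, for PTBP1, a splicing repressor, at 91.8 and 83.0 in si-NC and 108.2 and 99.5 in si-152, or for RBPMS, at 8.23 and 8.70 in si-NC and 6.76 and 6.03 in si-152. MBNL1 and QKI, the other highest of the list and both RNA-binding splicing factors, overlapped, with differences of 0.26 and -0.08. RBFOX2 was at 2.20 FPKM in si-NC replicate 2 and at 6.87 to 8.11 in the other libraries.

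All 18 partners of the SNAIL and ZEB factors were tested, with 11 positive and 7 negative differences and a median of 0.05. HDAC1, a histone deacetylase recruited by SNAIL, had 64.9 and 55.2 FPKM in si-NC, against 79.0 and 79.2 in si-152. Its groups did not overlap, with a difference of 0.40 (SE 0.17, limma, adjusted p = 0.9996). The corepressor CTBP1 differed by -0.01, HDAC2 by 0.04 and the kinase subunit CSNK2A1 by 0.11.

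**Figure D4:**
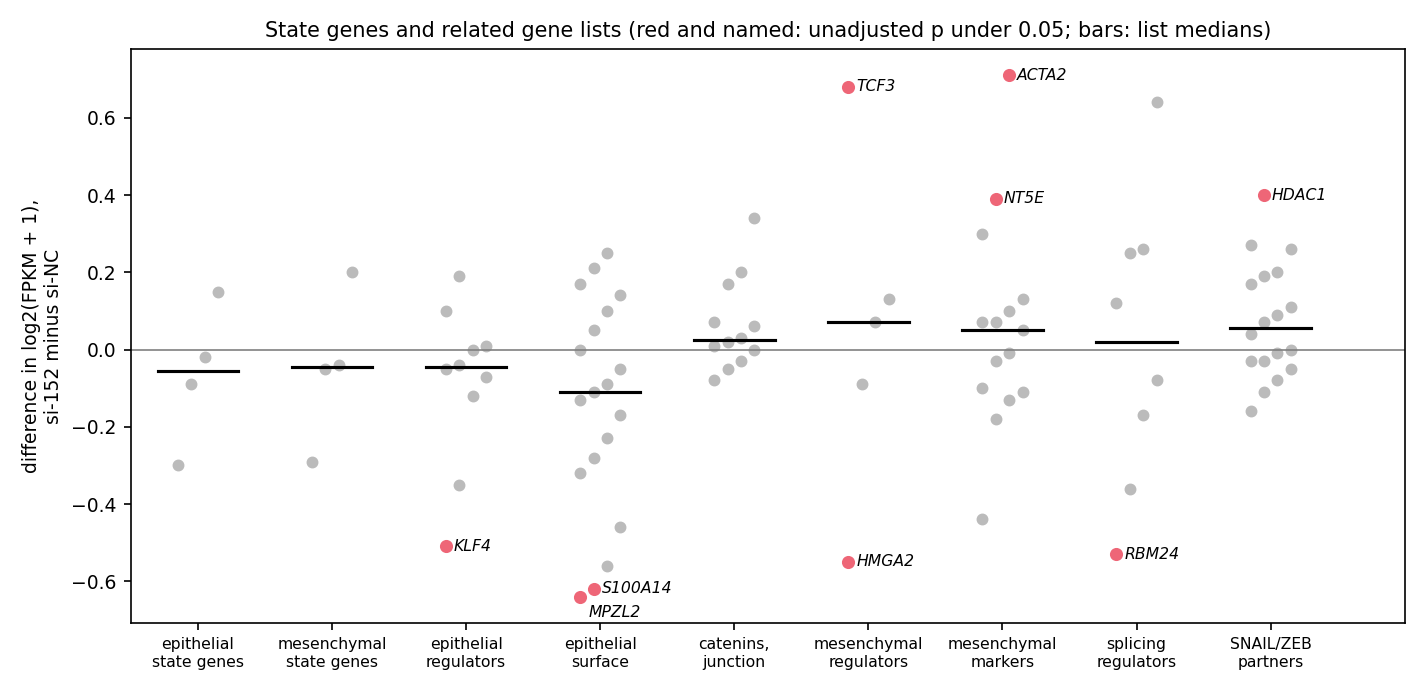
Difference of si-152 from si-NC on the log2(FPKM + 1) scale for each tested gene of the 2 arms and the 7 lists, 1 point per gene, with a bar at each median and names and red points for genes with an unadjusted p under 0.05. Points lie on both sides of 0 in every column, and the medians lie between -0.11 and 0.07.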

How the data were processed

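Total RNA of 2 si-NC and 2 si-152 HCT116 cultures was sequenced. The deposited FPKM values, 1 per gene symbol and library, were made by the authors. The unit was inferred from the values, since it is not stated. The authors' processing notes name Trimmomatic, TopHat, HISAT2, HTSeq, DESeq and GRCh38. Their roles and versions, and strandedness, are not given in the sources used here. The authors tested read counts with DESeq. Here a log-scale test was used. Of 19974 rows, 4 with a repeated symbol were left out, and 28 symbols read as dates. Whole reads were not recovered, so depth and counting error are unknown. No further scaling was applied.

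The 11219 genes that reached 1 FPKM in 2 or more libraries were compared on log2(FPKM + 1) by limma (version 3.58.1, R 4.3.3), using a variance trend and Benjamini-Hochberg adjustment. The +1 understates changes of low genes. P-values rest on 2 cultures per group. Alternatives were a pseudocount of 0.1, other filters, a replicate block, size factors, quantile normalization, no trend and leaving out each library. The script was tested on simulated data with changes larger than those of the members. The simulated noise was the same for every gene and smaller than the average spread within groups here. Its power for small changes, or at the spread of these data, was thus not tested. The members and lists were chosen with earlier results of these data known. Named were all members and, per list, genes with unadjusted p under 0.05 and the 3 highest in mean FPKM; paralogs (ESRP2, GRHL1, ZEB2, CDH3), RBFOX2, RBPMS, HNRNPC and PSMC4 were named after their values were seen.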

Additional observations from a re-analysis of the deposited data

How the results depend on the processing

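Of 87 alternative values of the 8 tested members, 81 kept their direction, 6 reversed and 1 had an unadjusted p under 0.05 (limma). The other filters, the replicate block and the fit with no trend leave each fitted difference as it was, so these values could not reverse. EPCAM turned to 0.04 with quantile normalization. When single libraries were left out, the reversals came without si-NC replicate 1 or si-152 replicate 2 for CDH1, without si-NC replicate 2 for ZEB1 and without si-152 replicate 1 for EPCAM and GRHL2. EPCAM ran from -0.25 to 0.07, CDH1 from -0.16 to 0.12, ZEB1 from -0.04 to 0.44, GRHL2 from -0.02 to 0.32, ESRP1 from -0.50 to -0.09 and TWIST1 from -0.46 to -0.11. Each such fit leaves a group with 1 library, which is assumed to vary like the other group. The log2 ratio of CDH1 to VIM (0.03) ran from -0.10 to 0.16 without single libraries, the negative values being those without si-NC replicate 2 (-0.08) or si-152 replicate 1 (-0.10). Non-overlapping members went from 4 to 2 with quantile normalization. The 2 genes called over all genes became 1 with a pseudocount of 0.1, no filter, size factors, quantile normalization or no trend, 0 with at least 1 FPKM in every library, and 45 to 78 without single libraries. Genes at unadjusted p under 0.05 (493) became 796 with no filter, where more genes are tested, and 310 to 722 without single libraries. Those also past 1.5-fold ran from 112 to 231 higher (67) and from 106 to 375 lower (118). The cause was not tested. The labels do not say that replicate numbers mark a shared batch, and the deviations of same-numbered libraries correlated at 0.52 across 11219 genes, over only 2 pairs. With the replicate block, 75 genes passed the adjusted threshold of limma. An unadjusted p under 0.05 was then found for 1891 of the 11219 genes and for 1 of the 8 members, ESRP1 (-0.30). Among list genes, TCF3 (0.62 to 0.73) and ACTA2 (0.65 to 0.89) had an unadjusted p under 0.05 in every alternative, whereas S100A14, NT5E and HDAC1 lost it with size factors. NT5E (0.26 to 0.51) and HDAC1 (0.28 to 0.51) also lost it with no trend and whichever library was left out, S100A14 (-0.96 to -0.28) with no filter and without si-NC replicate 2 or si-152 replicate 1, KLF4, MPZL2 and RBM24 without si-NC replicate 1 or si-152 replicate 1, and HMGA2 without si-NC replicate 1.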
